A study of Rattus norvegicus with 18 samples.

Results

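Gad1 encodes GAD67, one of the glutamate decarboxylases, the enzymes that make the neurotransmitter GABA from glutamate with a vitamin B6 cofactor. Pancreatic beta cells hold GABA outside the brain and release it within the islet, where it can act on receptors of neighbouring endocrine cells. Gad1 and its paralogue Gad2, which encodes GAD65, are both known to be expressed in rat islets. Gad1 is 1 of the 27654 genes in the deposited tables, where the row ENSRNOG00000000007 is taken as Gad1, and it was followed here through all 18 libraries. It was chosen by its measured counts in these libraries and its differences between same-numbered libraries, so all its values are given as a description, with a standard error where a model gave one and with no test.

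RNA was sequenced from sorted beta cells of rat islets in 4 groups, with 4 old replicative, 4 old quiescent, 5 young replicative and 5 young quiescent libraries. Islets of both ages were kept overnight in RPMI1640 that held 11.1 mM glucose and 10% fetal bovine serum, and all were exposed to 10 micromolar EdU, a thymidine analogue that marks cells which copied DNA during the exposure. Replicative and quiescent cells are therefore fractions of the same cultures, and no group went without EdU. The series text describes 9 islet batches, each pooled from 2 rats and each giving a replicating and a quiescent sample. The sources used here state neither the strain, the exact ages, the sort gate nor how many cells went into a library.

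Total counts ran from 2723660 to 14222719 per library. Old replicative libraries varied most among themselves, with a median SD of 0.46 on the log2 scale over the 515 abundant genes defined here by an average log2 CPM of at least 8, against 0.22 to 0.33 in the other groups. CPM is the count per 1e+06 counts of a library scaled by TMM factors. Old replicative libraries also held the fewest genes with a count, 11859 to 17772, against 17448 to 19882 in old quiescent libraries, 14759 to 23683 in young replicative libraries and 19054 to 23879 in young quiescent libraries. The 10 most abundant genes by count, of which Gad1 is not one, took a smaller share of counts in the replicative library of every same-numbered pair. That share was 10.3% to 20.6% in old replicative and 23.6% to 27.7% in old quiescent libraries, and 19.8% to 22.4% in young replicative and 25.7% to 30.1% in young quiescent libraries. Whether Gad1 was the only gene of GABA handling with its pattern was not analysed here. Nor was whether the sorted cells carried alpha cell, delta cell or stromal RNA. The reason is that neither the files nor the reference table pairs the IDs, that of Gad1 included, with gene names.

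Gad1 took a smaller share of scaled counts in replicating than in quiescent beta cells at both ages. Group means were 6.79-fold lower in old and 2.84-fold lower in young islets. Old replicative libraries 1, 2, 3 and 4 had 139, 146, 335 and 731 CPM of Gad1. The old quiescent libraries 1, 2, 3 and 4 had 964, 2118, 2843 and 3246 CPM. All 4 old replicative libraries lay below all 4 old quiescent libraries, although the distance between the closest of them, 731 and 964 CPM, was small beside the range within either group. The means were 338 ± 277 CPM in old replicative and 2293 ± 1001 CPM in old quiescent libraries (SD, n = 4 each), a 6.79-fold lower mean in replicating cells.

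In young islets, replicative libraries 1 to 5 had 333, 502, 485, 295 and 441 CPM. The young quiescent libraries 1 to 5 had 1185, 1480, 1817, 720 and 643 CPM. Here too the groups did not overlap, with the highest replicative library at 502 CPM and the lowest quiescent library at 643 CPM. The means were 411 ± 92.3 CPM in young replicative and 1169 ± 499 CPM in young quiescent libraries (SD, n = 5 each), a 2.84-fold lower mean in replicating cells.

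**Figure D1:**
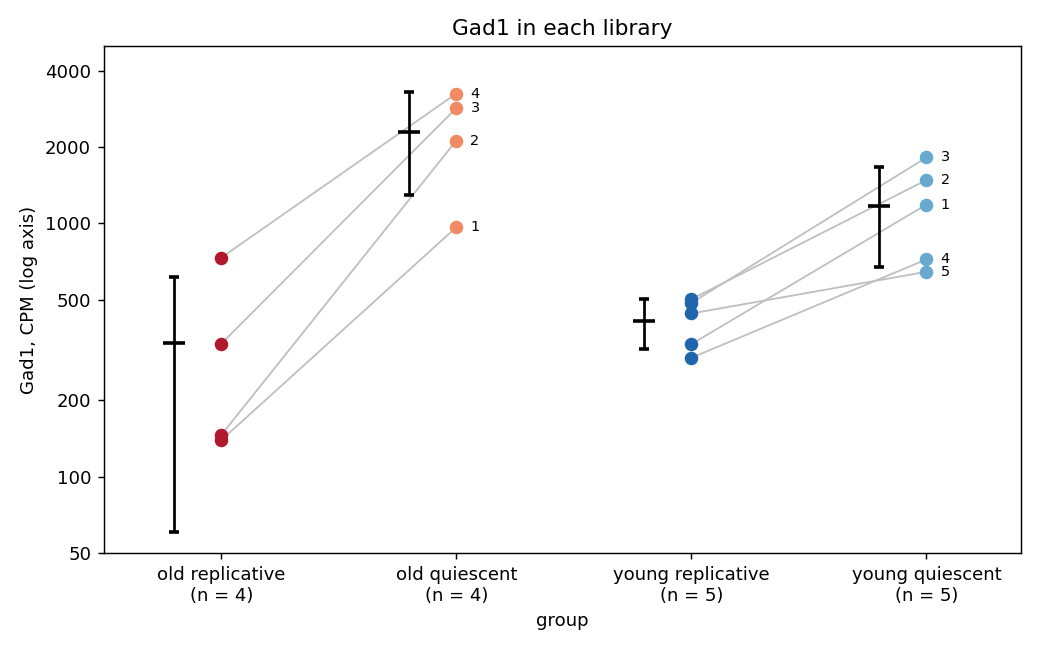
Gad1 in CPM (log axis) in each of the 18 libraries, by group. Points are libraries, grey lines join libraries of 1 age with the same replicate number (printed at the right), and black marks with bars are the group mean ± SD; every line climbs toward the quiescent side, and the old replicative points spread from 139 to 731 CPM.

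These differences rest on deep counts. Gad1 had between 1029 reads, in old replicative library 1, and 28249 reads, in old quiescent library 4. The exact (Clopper-Pearson) 95% binomial interval on a library's level was 131 to 148 CPM in old replicative library 1 and 3208 to 3284 CPM in old quiescent library 4. Its half-width was at most 6.16% of the level in any library, far under the spread between libraries of a group, and it covers counting error only. In bulk RNA, fewer Gad1-expressing cells in a fraction and less Gad1 RNA per cell cannot be told apart. CPM is a share of scaled counts, so the amount of Gad1 RNA per cell was not measured.

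Groups that do not overlap are not rare in these data. In old cells 1655 of the 14920 genes tested (11.1%) had every replicative library below every quiescent one, and among the 515 abundant genes 162 (31.5%) did. In young cells the shares were 2.64% of all genes tested and 5.63% of abundant genes. The edgeR quasi-likelihood test called 6.60% of genes lower in old replicative cells and 0.214% lower in young replicative cells at a Benjamini-Hochberg adjusted p under 0.05. That is 985 and 32 genes, against 145 and 162 when each age was fitted on its own 2 groups. Fits of all 18 libraries with another scaling, filter, depth, tool or block gave 213 to 1341 lower genes in old and 18 to 1240 in young cells. These shares are the background of the contrasts in which Gad1 was picked, and nothing is read from them about Gad1.

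The difference in Gad1 lay at the low end of those of the abundant genes. The fitted log2 fold change was -2.76 (SE 0.47) for old replicative minus old quiescent libraries, while the median was 0.0098 over all genes tested and -0.49 over abundant genes. None of the other abundant genes had a lower value in old cells, although 611 of all 14920 genes did. For young replicative minus young quiescent libraries the Gad1 log2 fold change was -1.51 (SE 0.40), against a median of 0.03 over all genes and -0.15 over abundant genes. In young cells 1 abundant gene had a lower value, as did 165 of all genes. The old and young comparisons share no library, but Gad1 was chosen with the values of both known.

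The old value leaned on one library. Without old replicative library 4, the highest of its group, the log2 fold change was -3.52 (SE 0.45), and with any other single library left out it lay between -3.03 and -2.52. Old replicative library 3, the shallowest of its group at 2975086 counts and the one with the fewest detected genes, did not set it, with -2.77 (SE 0.58) without that library. In young cells leaving out a library gave -1.66 to -1.29.

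Scaling moved these values little. Log2 fold changes with RLE factors, upper-quartile factors and plain library totals were -2.62, -2.86 and -2.47 in old cells and -1.49, -1.57 and -1.37 in young cells. With the 10 most abundant genes removed before scaling they were -2.79 in old and -1.52 in young cells. On the deposited log2 values the difference of group means was -2.84 in old and -1.39 in young cells.

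**Figure D2:**
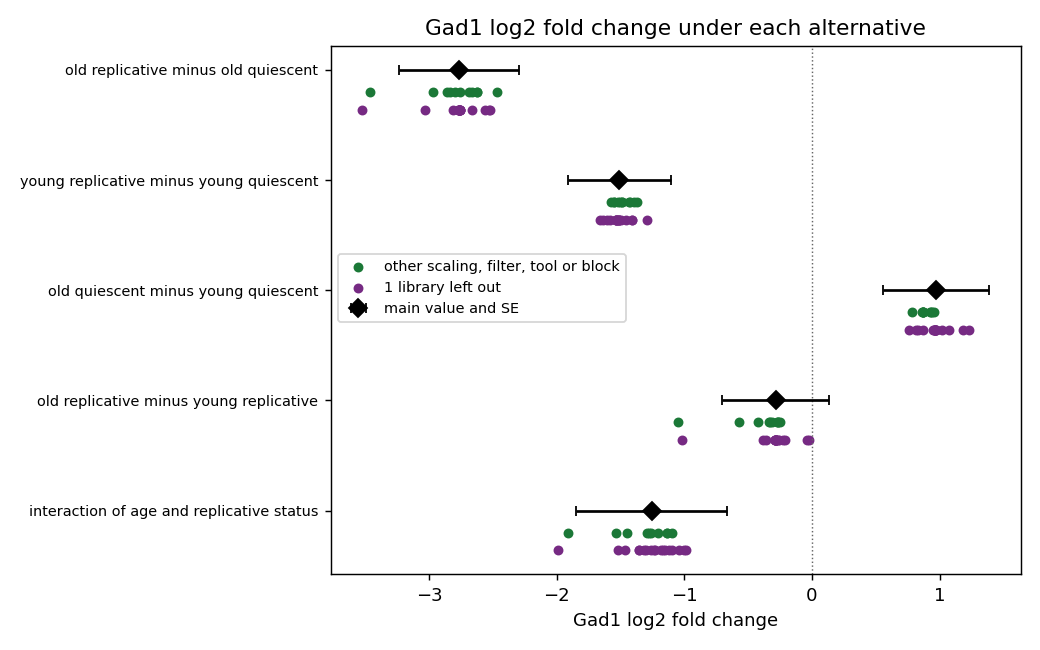
Gad1 log2 fold change for 4 group comparisons and the age-by-status interaction. Black diamonds with bars are the main edgeR values ± SE, green points other scalings, filters, tools or a replicate block, and purple points fits with 1 library left out; the replicative minus quiescent values stay below 0 throughout, and the values for old replicative minus young replicative libraries reach from -1.05 to -0.02.

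Taken by replicate number, Gad1 was lower in the replicative library of all 9 pairs. Since the 2 fractions of each age did not overlap, any pairing of their libraries would give this, and only the sizes add to it. The labels give both fractions the same numbers, but do not say that a number marks an islet batch, so these pairs are same-numbered libraries and may not all be batch mates. In old cells the log2 CPM differences, replicative minus quiescent, were -2.79, -3.85, -3.09 and -2.15 for numbers 1 to 4, with a mean of -2.97 ± 0.71 (SD, n = 4). The largest, in pair 2, is a 14.5-fold lower level in the replicative library, and the smallest, in pair 4, a 4.44-fold lower one. In young cells the differences were -1.83, -1.56, -1.91, -1.29 and -0.55 for numbers 1 to 5, with a mean of -1.43 ± 0.55 (SD, n = 5). Every old pair differed by more than every young pair. The median difference of the abundant genes was separated by age in the same way. It was -0.40, -0.60, -0.56 and -0.38 in old pairs and -0.07, -0.12, -0.26, -0.25 and -0.10 in young pairs. Pair 5 of the young islets stood closest to 0, with 441 CPM in the replicative and 643 CPM in the quiescent library, a 1.46-fold lower level in replicating cells.

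Being lower in all 9 pairs was shared by 764 of the 14920 genes tested (5.12%) and by 151 of the 515 abundant genes (29.3%). Gad1 was picked by these same differences, so their sizes beside those of the abundant genes are a description only. In 7 of the 9 pairs no more than 2 abundant genes had a lower difference than Gad1, while 13 did in young pair 4 and 84 did in young pair 5. In each of the 9 pairs at once, 1 gene of all those tested, and no abundant one, was lower than Gad1. This condition joins 9 pairs, and the same count was not made for other genes, so nothing is read from it about Gad1.

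**Figure D3:**
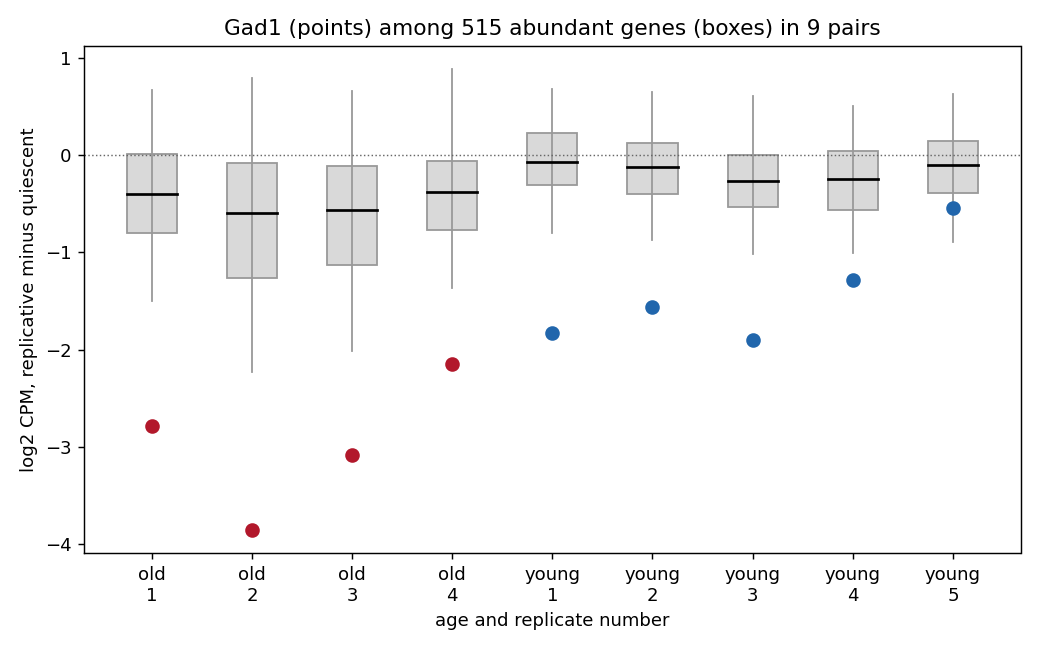
Log2 CPM of the replicative minus the same-numbered quiescent library, for 4 old and 5 young pairs. Coloured points are Gad1 (red old, blue young); boxes span the middle 50% of the 515 abundant genes, black lines their median and whiskers the 5th to 95th percentile; Gad1 lies below the whisker in all pairs except young pair 5.

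Some numbers were high or low for Gad1 in both fractions. In old islets the order of the numbers was the same in both fractions, with library 1 lowest, then 2, 3 and 4. In young islets number 4 was below its group mean in both fractions on the log2 scale, and numbers 2 and 3 above it in both, whereas numbers 1 and 5 lay on opposite sides. Of the 9 numbers, 6 deviated from their group means in the same direction in both fractions, 3 of 4 in old and 3 of 5 in young islets. The same count was not made for other genes, so nothing is read from it about Gad1.

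Old and young libraries were also compared within each fraction. Among quiescent cells, old libraries averaged 2293 ± 1001 CPM (SD, n = 4) and young ones 1169 ± 499 CPM (SD, n = 5), a log2 fold change of 0.97 (SE 0.42). The 3 highest libraries of the series were old quiescent 2, 3 and 4, but old quiescent library 1, at 964 CPM, lay inside the young quiescent range of 643 to 1817 CPM, so the groups overlapped. Of the other abundant genes, 26 had a higher value in this comparison. Leaving out a library gave 0.76 to 1.23.

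Among replicating cells, old libraries averaged 338 ± 277 CPM (SD, n = 4) and young ones 411 ± 92.3 CPM (SD, n = 5), a log2 fold change of -0.28 (SE 0.42). The old replicative range of 139 to 731 CPM enclosed all 5 young replicative libraries, which lay between 295 and 502 CPM. No age difference could be seen here beyond the spread, and its size depended on single libraries. It was -0.02 without old replicative library 1, -0.04 without library 2 and -1.02 without library 4.

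In order of mean level the groups were old quiescent, young quiescent, young replicative and old replicative. Of the neighbours in this order, only young quiescent and young replicative libraries were separate in every library, and the neighbours of different age overlapped within each fraction. Across fractions, old replicative library 4, at 731 CPM, stood above young quiescent libraries 4 and 5, at 720 and 643 CPM. The difference of the 2 replication effects, old minus young, was -1.26 on the log2 scale (SE 0.59), and it was below 0 in every alternative and with every library left out, between -1.99 and -0.99. It rests on the same libraries as the comparisons above and was not tested for Gad1. The median of this difference was -0.02 over all genes tested and -0.32 over abundant genes. A lower value than that of Gad1 was found for 1840 of the 14920 genes tested (12.3%), 5 of them abundant. Over all genes this interaction was called for 0.0268% of those tested, 4 genes, all with a negative value, and for 1513 at an unadjusted p under 0.05.

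Among libraries of a group, Gad1 varied more than the median abundant gene. The SD of its log2 CPM was 1.13 in old replicative, 0.78 in old quiescent, 0.34 in young replicative and 0.65 in young quiescent libraries. The median SD of the abundant genes in these groups was 0.46, 0.22, 0.30 and 0.33 in the same order. A larger SD than that of Gad1 was found for 14 of the 515 abundant genes in old replicative libraries, 15 in old quiescent, 197 in young replicative and 40 in young quiescent libraries. The highest library was 5.24 times the lowest in the old replicative group, 3.37 times in the old quiescent, 1.70 times in the young replicative and 2.82 times in the young quiescent group.

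The genes whose levels followed Gad1 most closely were ranked by Spearman's rho over the 18 libraries, among 11548 other genes with an average log2 CPM of at least 2. These libraries fall into groups and share depth and composition, so rho describes the profile and carries no p. A rho of 0.9 or more was found for 10 genes and of 0.8 or more for 111, while 67 genes had a rho of -0.8 or less and 0 one of -0.9 or less.

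The closest was ENSRNOG00000020918, with a rho of 0.94 and a Pearson r of 0.92. Its mean was 92.7 ± 47.02 CPM in old replicative and 277 ± 20.8 CPM in old quiescent libraries (SD, n = 4 each), and 123 ± 12.3 CPM in young replicative and 201 ± 34.6 CPM in young quiescent libraries (SD, n = 5 each). It was lower in the replicative library of all 9 pairs, as Gad1 was, with log2 fold changes of -1.58 (SE 0.27) in old and -0.71 (SE 0.24) in young cells, both nearer 0 than those of Gad1. The second was ENSRNOG00000003114, with a rho of 0.94, at 191 ± 121 CPM in old replicative and 579 ± 53.7 CPM in old quiescent libraries and at 123 ± 29.0 CPM in young replicative and 334 ± 165 CPM in young quiescent libraries. With group means removed, its log2 CPM still followed that of Gad1 with a Pearson r of 0.83 over the 18 libraries, against 0.68 for the first gene. Over the 9 pair differences the order was the other way, with an r of 0.76 for the second gene and 0.95 for the first.

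The profiles most opposite to Gad1 were weaker. ENSRNOG00000014615 had a rho of -0.90 and stood at 48.6 ± 24.1 CPM in old replicative and 18.1 ± 2.89 CPM in old quiescent libraries (SD, n = 4 each), and at 39.4 ± 8.67 CPM in young replicative and 25.2 ± 3.13 CPM in young quiescent libraries (SD, n = 5 each). It was higher in the replicative library of 8 of the 9 pairs. ENSRNOG00000003235 had a rho of -0.89, with 90.7 ± 57.5 CPM in old replicative and 25.8 ± 2.56 CPM in old quiescent libraries and 40.8 ± 11.1 CPM in young replicative and 31.4 ± 5.36 CPM in young quiescent libraries. Neither the files nor the reference table gives names for these 4 IDs.

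**Figure D4:**
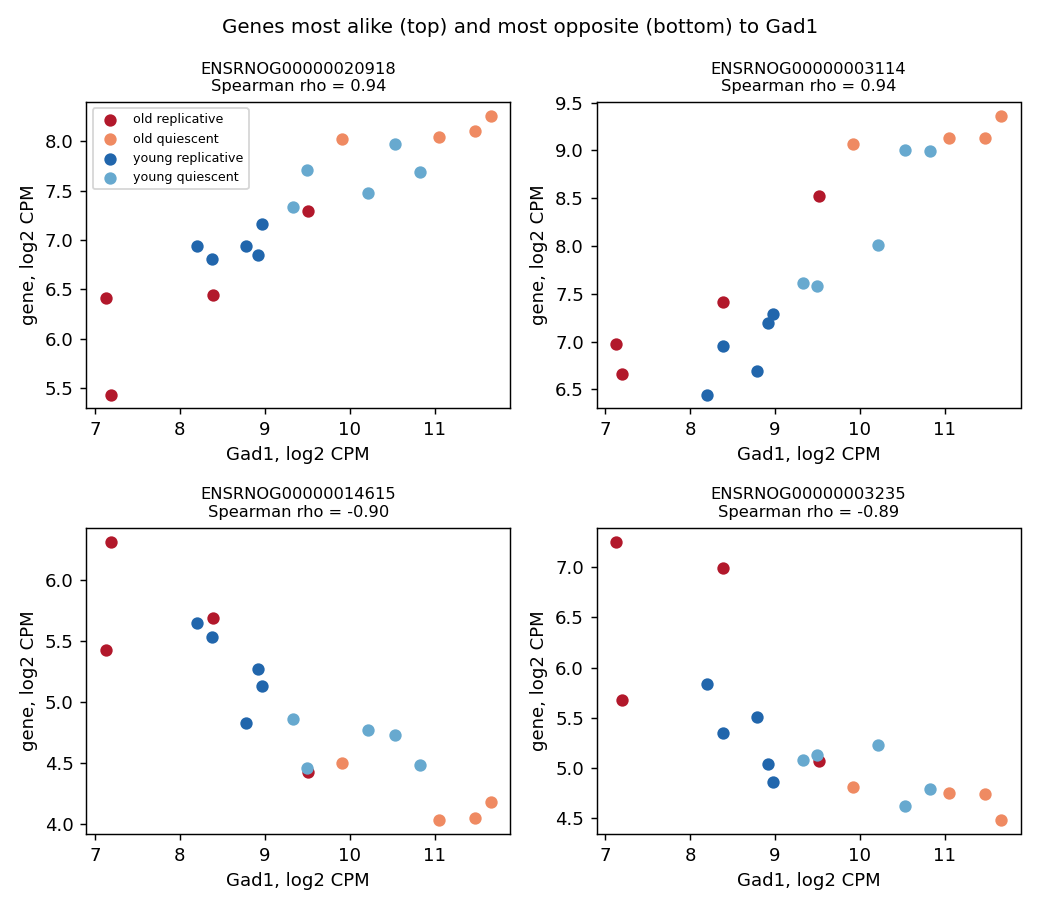
Log2 CPM of each of 4 genes (vertical axes) against log2 CPM of Gad1 (horizontal axes) in 18 libraries, coloured by group. The upper panels show the pair of genes with the highest Spearman's rho to Gad1 (0.94 each) and the lower panels the pair with the lowest (-0.90 and -0.89); the old replicative points spread widest along both axes.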

How the data were processed

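The authors deposited a table of raw read counts for 27654 Ensembl gene IDs in 18 libraries, with no normalization, and a table of log2 values. The deposited log2 values equal the log2 of count over median-of-ratios size factor plus 1, within 5.3e-14. Per the labels' protocols, sorted cells were lysed with proteinase K, RNA was taken with a kit made for fixed tissue, and a forward-stranded total RNA kit was used. The submitters' processing notes name STAR, DESeq2 and the build rn6. The sources used here state no counting program, annotation release or strand setting. In the RefSeq table at hand (GRCr8) 0 genes overlap Gad1, which does not cover overlaps among the Ensembl genes of rn6.

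The counts went into edgeR 4.0.16 under R 4.3.3. There filterByExpr by group (minimum count 10, minimum total 15) kept 14920 genes, totals were scaled by TMM, and 1 model of 4 group means gave robust quasi-likelihood tests with Benjamini-Hochberg adjustment at a threshold of 0.05. CPM used TMM-scaled totals, and log2 CPM a prior count of 2. In edgeR fits, SE is the size of the log2 fold change over the square root of F. For DESeq2 and limma it is the standard error of their own fits. Each library is a pool of 2 rats. Alternatives used DESeq2 1.42.0, limma 3.58.1 and other settings. The model was tested on simulated data. Those data had the same dispersion for every gene and group, so groups of unequal spread were not covered.

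The gene, the comparisons and the lists were chosen with earlier results of these data known. The gene lists of GABA handling and of cell type markers could not be run, since 0 IDs matched a symbol in the reference. Named beside Gad1, by rule, are the 2 genes with the highest and the 2 with the lowest Spearman's rho to it.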

Additional observations from a re-analysis of the deposited data

How the results depend on the processing

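All 142 alternative Gad1 log2 fold changes, 88 group levels and 17 mean pair differences kept their sign. All moved by under 1 SD between replicates, a limit that a mean cannot pass when 1 of its own libraries or pairs is left out. The fitted log2 fold changes are not such means. For Gad1, limma-voom with quality weights gave -3.46 (SE 1.04) in old cells, -1.55 (SE 0.39) in young cells and an interaction of -1.91 (SE 1.11). Of 142 counts of genes called, 53 were over 1.5 times from the main count. Old replicative against old quiescent cells gave 2053 calls, but 540 with only the groups compared, 3183 in DESeq2 and 1021 in limma-voom. Young replicative against young quiescent cells gave 368, but 786, 604 and 2935 in the same 3 fits. Lower calls in replicative cells, 985 in old and 32 in young islets, were 799 and 31 with RLE factors, 1246 and 46 with upper-quartile factors, 597 and 18 with library totals, 1257 and 83 with the replicate block, and 213 and 1240 in limma-voom, beside 1068 and 336 higher calls with TMM, 1209 and 353 with RLE, 937 and 329 with upper-quartile factors and 1493 and 427 with totals. Old against young quiescent cells gave 4, but 258, 67 and 1571, with 8 without the low-count filter and 7 with thinned counts. Old against young replicative cells gave 1069, but 62, 2251 and 190, with 696 with thinned counts. The interaction gave 4, but 296 in DESeq2, 2 in limma-voom (both positive), 1 with no low-count filter, 1 in limma-trend on the deposited log2 values and 0 with thinned counts, where 1107 genes had an unadjusted p under 0.05. With 1 library left out these 5 counts ran from 1134 to 2916, 293 to 552, 0 to 14, 644 to 2211 and 0 to 231. Without old quiescent library 1, 3 or 4 the old comparison gave 1351, 1153 and 1134 calls in edgeR. The 0 for quiescent cells came without young quiescent library 2 or 3, where edgeR gave 546 and 591 genes with an unadjusted p under 0.05. The cause of these changes was not tested.

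With the replicate number as a block, Gad1 had -2.97 (SE 0.26) in old and -1.43 (SE 0.22) in young cells, with an interaction of -1.54 (SE 0.32), and the interaction was called for 11 genes, 9 of them positive. The same-numbered libraries' deviations from group means correlated at 0.09 to 0.19 in old and 0.07 to 0.51 in young pairs across genes, and 8 of the 9 replicative libraries correlated best with their own number, a hint from the data and not from the design.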
